A study of Mus musculus with 2 samples.

Results

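The regions described here are 5 stretches of the mouse genome in which JARID2 ChIP-seq reads formed evenly spaced peaks. They comprised 350 bins of 1 kb, out of 2539671 bins that held at least 1 read in either library of the series. The bins were fixed by coordinates, on chromosome 8 from 126423001 to 126511000 (88 kb), on chromosome 6 from 47580001 to 47617000 (37 kb) and from 47666001 to 47709000 (43 kb), on chromosome 4 from 88244001 to 88278000 (34 kb), and on chromosome 6 from 114455001 to 114603000 (148 kb). The series held 1 JARID2 library and 1 MTF2 library from mouse embryonic stem (ES) cells of a 129SvJae x C57BL/6 background, with no treatment named. In both, the cells were at passages 10 to 15 and had then grown 2 to 3 passages without feeders. Neither antibody had a replicate, and neither input nor control antibody was available here, so each level is relative to the other bins of the same library, and every difference is one between 2 libraries without a test. The JARID2 library held 12900993 reads of 36 bp and the MTF2 library 8946204 reads of 52 bp, once reads sharing a 5′ end on 1 strand had been reduced to 1. The stretches were chosen by the even spacing and the height of their JARID2 peaks, so the JARID2 spacing and level are a description and support nothing further. The chromosome 8 stretch and the chromosome 6 stretches of 37 and 43 kb also held an MTF2 call. Whether that call entered their choice is not stated, and their MTF2 level is likewise a description.

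JARID2 is a Jumonji-family protein and MTF2 a Polycomb-like protein. Both bind PRC2, the complex that methylates histone H3 and keeps developmental genes silent in ES cells. In a tandem array, copies of 1 repeat unit follow each other head to tail. Arrays of this kind in mouse hold genes for small structural RNAs that RNA polymerase III transcribes, such as the 5S rRNA of the large ribosomal subunit. Reads of such short lengths can match several copies, and no source at hand says how these were placed.

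The identity of the arrays was looked at through gene order only, since the genome build of the files is not stated and no genome sequence was used here. In RefSeq's GRCm38.p6 annotation, a run of 48 5S rRNA genes stood on chromosome 8, between Gas8 and Rhou. The chromosome 8 array spanned 51.8 JARID2 spacings. The label of a 5S rRNA array is an inference from position that was not checked by sequence. The pair of arrays on chromosome 6 had been inferred to hold tRNA genes. In the same annotation, 48 of the 53 tRNA genes of that chromosome stood between Zfp746 and Krba1. A different small RNA gene, Rn4.5s, which that annotation lists under rRNA, stood between the predicted genes Gm40369 and Gm40367. From Pdia4, which lies between Rn4.5s and the tRNA run, to Zfp746 there were 8 protein-coding genes. Which of the runs the files' coordinates cover was not settled here, so the pair is called by position and the name tRNA array is not used. The tissue label could not be checked against marker genes, because the libraries hold no expression.

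JARID2 was 21.1 to 152-fold over expected in the 5 arrays, while MTF2 was at 3.52-fold or more in 3 of them and at 1.08 and 1.30-fold in the other 2. Of the 350 bins, 339 had JARID2 at 5-fold or more over the expected count of their chromosome (96.9%), against 1.89% of all bins, a contrast that the choice of regions fixed. For MTF2 the number was 62 (17.7%), against 0.200% of all bins. All 62 lay in the chromosome 8 array (8 bins) and the chromosome 6 arrays of 37 kb (26 bins) and 43 kb (28 bins). The 5 arrays took 125484 JARID2 reads, 0.973% of that library, and 5359 MTF2 reads, 0.0599% of that library.

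**Figure D1:**
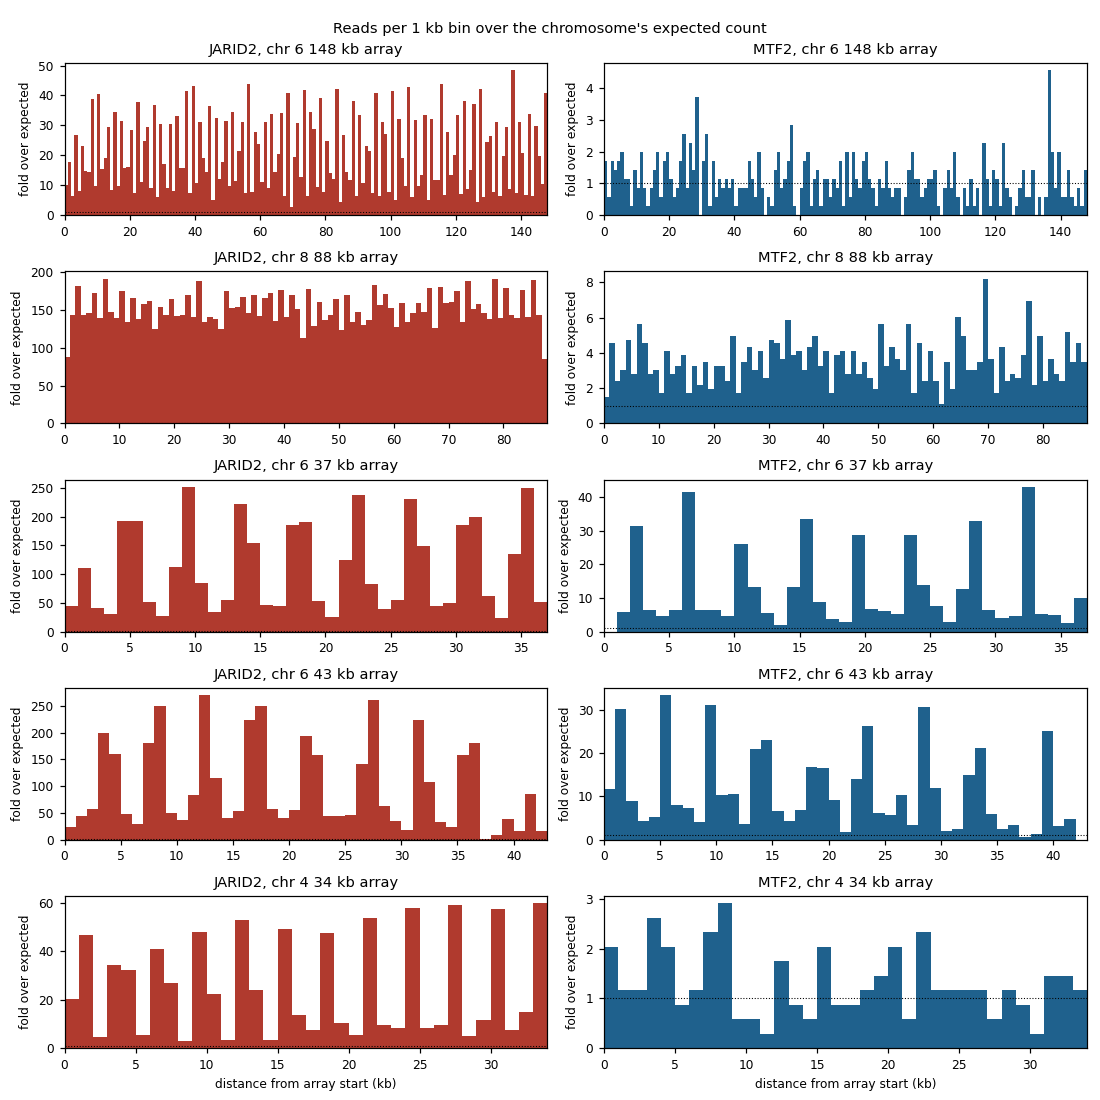
JARID2 (left, red) and MTF2 (right, blue) in 1 kb bins along each array. The x axis is the distance from the array's start in kb and the y axis the fold over the chromosome's expected count, with the dotted line at 1. JARID2 tops recur along the arrays, and reach 270-fold in the 43 kb array. MTF2 recurs in the 37 and 43 kb arrays of chromosome 6 and stays at or below 4.57-fold in the 148 kb array.

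The chromosome 8 array had the highest JARID2 level over the chromosome's expected count. Its 88 bins held 78071 JARID2 reads, 152-fold over expected (95% Poisson interval 151 to 153), and ran from 84.5 to 192-fold with a median of 147-fold. The MTF2 level was 3.52-fold (3.34 to 3.71), with bins from 1.08 to 8.22-fold. JARID2 reads over MTF2 reads, each divided by the library's depth, gave a ratio of 37.8 (35.9 to 39.9), the highest of the 5 arrays. Here 44.4% of all strand-specific positions already carried a JARID2 read, and with all deposited reads the ratio was 63.2. With the expected count taken from 50 kb on either side, the JARID2 fold was 68.8, below the 94.3 of the 37 kb array on chromosome 6.

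JARID2 reads recurred every 1.70 kb on chromosome 8. The autocorrelation of JARID2 counts in 10 bp steps was 0.551 at a lag of 1700 bp, after a trough of -0.218. The mean JARID2 profile of a repeat lay between 26.7 reads per 100 bp at its dip and 116 reads at its top, and distances between dips were less spread than those between tops. The highest windows, 49 in all, were 890 to 3440 bp apart, and 15 of 48 distances lay within 3% of the spacing, against 36 of 52 for the dips. The lowest 200 bp windows, 53 in all, lay a median of 1700 bp apart (quartiles 1658 and 1730). No 100 bp bin of this array was without a JARID2 read.

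MTF2 stood highest where JARID2 stood lowest on chromosome 8. In the 100 bp just before the centre of the JARID2 dip, a repeat held on average 26.7 JARID2 reads (25.4 to 28.2) and 3.75 MTF2 reads (3.25 to 4.31). At 600 to 699 bp to the right of the dip it held 108 JARID2 reads (106 to 111) and 0.231 MTF2 reads (0.119 to 0.403), the lowest MTF2 value of the profile. Other steps had both libraries raised, with 79.0 JARID2 and 2.48 MTF2 reads at -600 to -501 bp. At 400 to 499 bp there were 107 JARID2 and 2.27 MTF2 reads. Over the 16 steps of the profile Pearson's r between the libraries was -0.718 and Spearman's rho -0.583. These steps share the repeats and their sequence, and the values are a description. MTF2 also recurred at the JARID2 spacing, with an autocorrelation of 0.106. The dips were chosen for low JARID2, which lowers the JARID2 value there but did not use MTF2.

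The chromosome 6 pair was raised in both libraries. The 37 kb array held 15624 JARID2 and 1567 MTF2 reads, 109.9-fold (108 to 112) and 12.1-fold (11.5 to 12.7) over expected. The 43 kb array held 16012 JARID2 and 1649 MTF2 reads, 96.9-fold (95.4 to 98.4) and 10.9-fold (10.4 to 11.5). Single bins reached 252-fold JARID2 and 43.1-fold MTF2 in the 37 kb array, and 270-fold and 33.4-fold in the 43 kb array. The depth-scaled ratio was 6.91 (6.56 to 7.29) in the 37 kb array and 6.73 (6.40 to 7.09) in the 43 kb array, the lowest of the 5 and with overlapping intervals. With all deposited reads it was 10.7 in each. The JARID2 fold of the 43 kb array was 52.0 against its flank. Between the 2 arrays, from 47617001 to 47666000, neither library had a read over 49 kb.

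The repeat of the pair was 4.32 kb long in the 37 kb array and 4.33 kb in the 43 kb array. Highest JARID2 windows of 200 bp in the 37 kb array started at 47581301, 47584601, 47588921, 47593271, 47597601, 47601901, 47606241, 47610571 and 47614881. The first held 183 JARID2 and 0 MTF2 reads, and the other 8 held 271 to 287 JARID2 and 2 to 4 MTF2 reads. Their distances were 3300 bp for the first pair and 4300 to 4350 bp for the others. The JARID2 autocorrelation was 0.807 at 4320 bp, the highest of the 5 arrays, and its trough -0.420.

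The 43 kb array kept that spacing less evenly. Its first 3 distances were 4240, 4350 and 4350 bp. The next were 5500, 4920, 4370 and 4410 bp, and the last 3380 and 2690 bp. The first 8 windows held 236 to 290 JARID2 and 0 to 6 MTF2 reads. The window from 47705021 departed from that form, with 64 JARID2 and 27 MTF2 reads, and the last, from 47707711, held 158 JARID2 and 8 MTF2 reads. The JARID2 autocorrelation was 0.532 at its spacing.

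**Figure D2:**
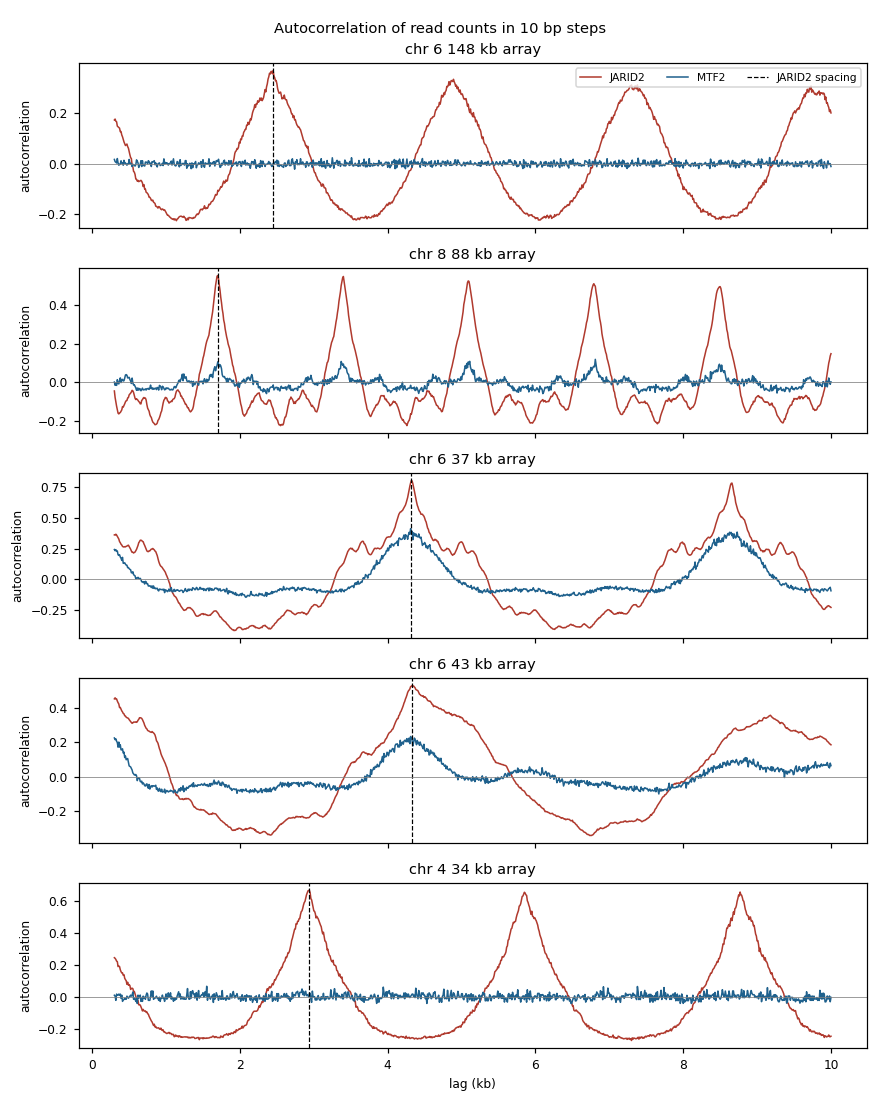
Autocorrelation of JARID2 (red) and MTF2 (blue) read counts in 10 bp steps against the lag in kb, for each array, with the JARID2 spacing as a dashed line. At that spacing JARID2 lies between 0.369 and 0.807. MTF2 reaches 0.371 and 0.211 in the 37 and 43 kb arrays and 0.106 on chromosome 8, and is at 0.00197 and -0.000284 in the 148 and 34 kb arrays.

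In the chromosome 6 pair both libraries recurred every repeat, but their highest values lay at different places within it. Around the highest JARID2 window, JARID2 had a second top at 600 to 699 bp (112 reads per 100 bp in the 37 kb array). There MTF2 held 3.33 reads (2.25 to 4.76), and 4.44 at 700 to 799 bp. JARID2 rose again in that array, from 5.56 reads at 1200 to 1299 bp to 34.8 at 1600 to 1699 bp. At that last step MTF2 held 14.0 reads. MTF2 was highest at 1800 to 1899 bp to the right in the 37 kb array, with 16.0 JARID2 reads (13.5 to 18.8) and 17.1 MTF2 reads (14.5 to 20.04) per 100 bp and repeat. In the 100 bp just left of the JARID2 window's centre there were 152 JARID2 reads (144 to 160.0) and 1.11 MTF2 reads (0.533 to 2.04). In the 43 kb array MTF2 was highest at 1900 to 1999 bp, with 14.9 JARID2 and 11.8 MTF2 reads (9.64 to 14.2). At the JARID2 top of that array the values were 123 JARID2 and 3.40 MTF2 reads (2.35 to 4.75). Its windows include that from 47705021, with 64 JARID2 and 27 MTF2 reads. The windows were chosen for high JARID2, which raises the JARID2 value there but did not use MTF2.

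The offset was also looked at repeat by repeat in the 37 kb array. In all 7 repeats with a complete surround, the highest MTF2 window of 200 bp lay 1820 to 1940 bp to the right of the JARID2 one. In the 43 kb array the median was 1840 bp over 9 repeats, with a range of -750 to 2075 bp. Over 42 steps of 100 bp, Pearson's r between the mean profiles of the 2 arrays was 0.969 for JARID2 and 0.950 for MTF2, against 0.498 and 0.00912 with 1 of them reversed. These values are descriptions of 1 library each. Reads can match several copies, so neither the repeats nor the 2 arrays are replicates of each other. The part of such reads in the offset and in the likeness of the profiles was not tested.

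**Figure D3:**
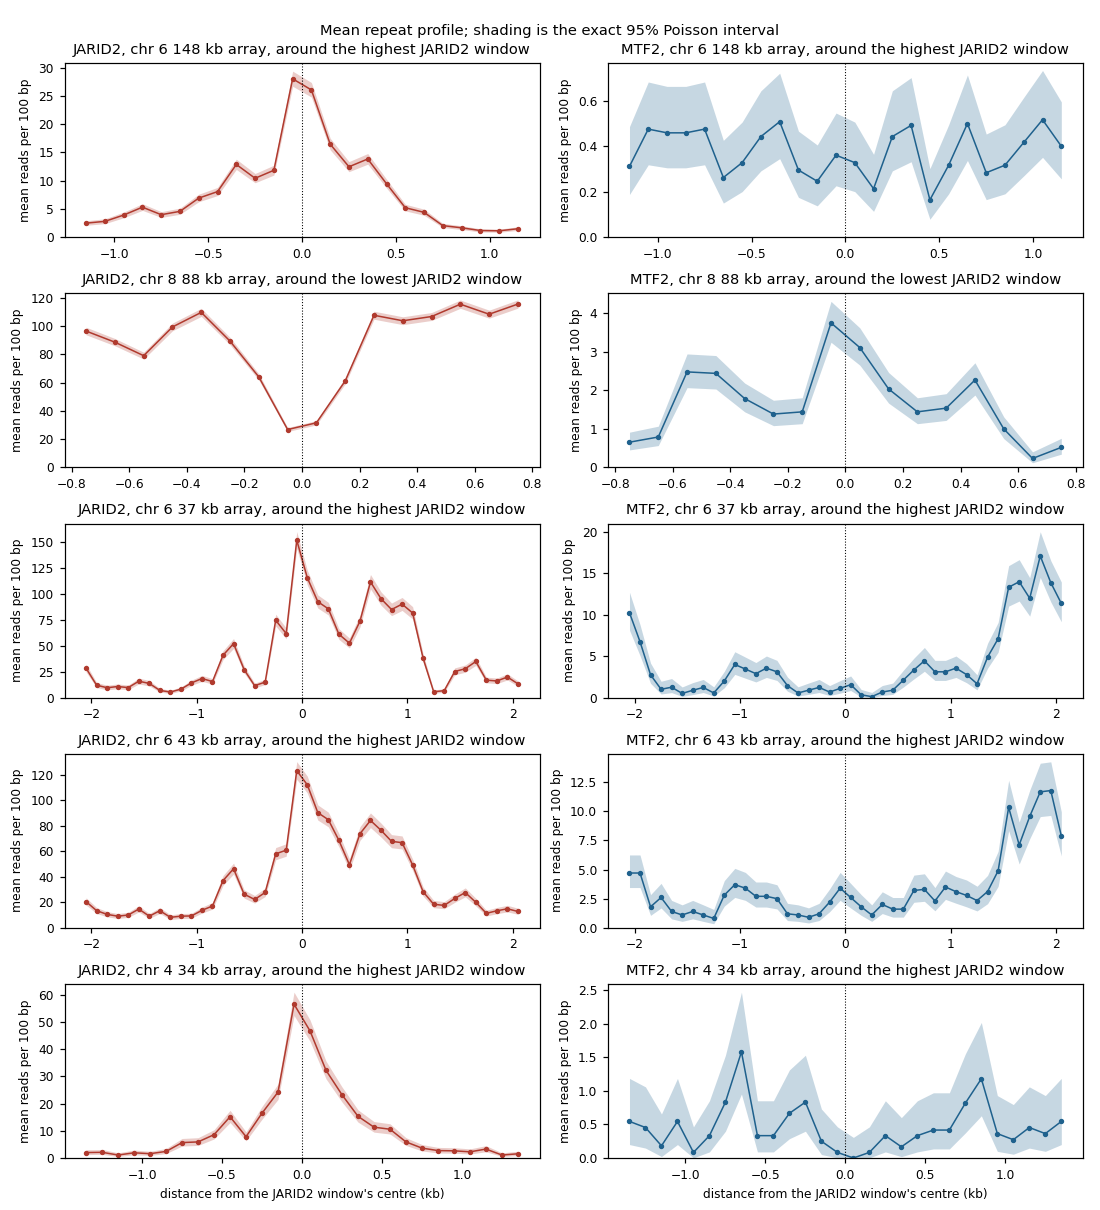
Mean JARID2 (left, red) and MTF2 (right, blue) reads per 100 bp around the JARID2 window of each repeat, against the distance from its centre in kb, with exact 95% Poisson intervals shaded. Windows are the highest of each repeat, and for chromosome 8 the lowest. In the 37 kb array JARID2 is at 152 reads at the window and MTF2 at 17.1 reads near 1.85 kb, while on chromosome 8 the MTF2 top of 3.75 reads falls on the JARID2 dip.

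How MTF2 at JARID2 peaks compared with MTF2 between them depended on which peaks and which bins between were counted. With every 100 bp JARID2 peak of at least 5-fold, 55 in the 43 kb array and 50 in the 37 kb array, MTF2 was 1.75 times (1.50 to 2.03) and 1.28 times (1.10 to 1.49) as high at peaks as in bins at least 300 bp away. With bins at least 500 bp from a peak the 43 kb ratio was 5.47. Peaks there lay a median of 700 bp apart, so such bins came only from wider gaps and the array's ends. They include runs without a JARID2 read, of 500 bp from 47666001 and 400 bp from 47703301. With the highest JARID2 window of each repeat set against the same bins at least 300 bp from any peak, the ratios were 1.03 in the 43 kb array and 0.335 in the 37 kb array. Against all of the remainder they were 0.774 and 0.304. In the 43 kb array 27 of the 60 MTF2 reads in these windows fell in that from 47705021, which held 64 JARID2 reads. The ratios without that window were not computed. On chromosome 8 the ratio was 0.669 (0.558 to 0.799) for all 118 peaks and 0.426 for the highest windows against the same bins. In the 148 kb array these ratios were 1.03 (0.731 to 1.42) and 0.923, and in the chromosome 4 array 0.785 (0.331 to 1.60) and 0.0859.

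The chromosome 4 array had 1 dominant JARID2 peak per repeat and a low MTF2 level. It held 3780 JARID2 reads, 25.4-fold over expected (24.6 to 26.2), and 151 MTF2 reads, 1.30-fold (1.10 to 1.52). The MTF2 fold was 1.07 over the flanks and 1.59 with reads of score above 0. None of its 34 bins reached 5-fold in MTF2, and 30 did in JARID2. The repeat was 2.93 kb, with an autocorrelation of 0.664. The JARID2 fold was 9.01 against the flanks, with the 50 kb to the left at 4.79-fold and those to the right at 0.840-fold. The depth-scaled ratio was 17.4 (14.8 to 20.6).

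The 12 highest windows of the chromosome 4 array started at 88244971, 88247881, 88250831, 88253771, 88256711, 88259651, 88262541, 88265441, 88268361, 88271281, 88274231 and 88277141. They held 86 to 120 JARID2 reads with a median of 104, and their distances ran from 2890 to 2950 bp. MTF2 had no read in 11 of them and 1 read in that from 88247881. In the 100 bp to the right of the centre the mean was 46.8 JARID2 reads, and no MTF2 read fell there over the 12 repeats (upper bound 0.307 per repeat). The largest MTF2 value of the profile was 1.58 reads (0.953 to 2.47) at -700 to -601 bp. With 151 MTF2 reads in the whole array, that difference is read as counts of 1 library only.

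The 148 kb array on chromosome 6 was the longest and had the lowest JARID2 level over the chromosome's expected count, though not over its flanks, where it was at 14.2-fold and the chromosome 4 array at 9.01-fold. Its 11997 JARID2 reads amounted to 21.1-fold (20.7 to 21.5), with bins from 2.86 to 48.4-fold and a median of 19.1-fold. Its 560 MTF2 reads amounted to 1.08-fold (0.992 to 1.17), and no bin reached 5-fold. That interval includes 1, but the MTF2 fold was 1.48 over the flanks and 1.40 with reads of score above 0. The depth-scaled ratio was 14.9 (13.6 to 16.2). The repeat was 2.45 kb, with 60.4 spacings in the array and an autocorrelation of 0.369.

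At the highest windows of the 148 kb array, 61 in all, JARID2 ran from 27 to 97 reads with a median of 54, and MTF2 from 0 to 4 reads, with 31 windows at 0. Distances between them had a median of 2430 bp and quartiles of 2368 and 2500 bp. The mean JARID2 profile ran from 28.0 reads (26.7 to 29.4) per 100 bp at the centre to 1.12 reads (0.865 to 1.42) at 1000 to 1099 bp. The MTF2 profile stayed between 0.164 reads (0.0786 to 0.301) and 0.517 reads (0.351 to 0.733).

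JARID2 totals per stretch of 1 spacing varied about as much as counting error gives on chromosome 4. They varied more than that in the other arrays, which in the 37 kb array rested on the stretch at its edge. Stretches were cut at a fixed length from the array's start and not aligned to the repeats. In consecutive stretches of 1 spacing, the chromosome 4 array had 288 to 352 JARID2 reads with a median of 315, and a coefficient of variation of 5.93%, where counting error alone gives 5.64%. On chromosome 8 the 51 stretches had 994 to 1661 JARID2 reads with a median of 1536, and 7.08% against 2.57% from counting. The first stretch, at the array's edge, was the lowest there and in the 37 kb and 148 kb arrays. The 148 kb array had 114 to 239 JARID2 reads per stretch with a median of 200, and 12.3% against 7.12%.

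The coefficient of variation of JARID2 totals was 18.0% in the 37 kb array and 15.3% in the 43 kb array, against 2.38% and 2.42% from counting. The 37 kb array had 981 JARID2 reads in its first stretch and 1835 to 1919 in the other 7, whose variation was 1.59% against 2.31% from counting. Keeping 1 read per strand and 5′ end caps the counts, and 21.1% of strand-specific positions of that array carried a JARID2 read. The value from counting takes no account of that cap, so nothing is drawn from a variation below it. Without the first stretch the variation was 5.13% on chromosome 8, 10.9% in the 148 kb array, 16.0% in the 43 kb array and 6.23% on chromosome 4. The 43 kb array had 1377 to 2028 JARID2 reads per stretch. Its highest windows lay 2690 to 5500 bp apart, and the stretch from 47683321 to 47687650 held none of them. The part of this in its variation was not tested. MTF2 totals per stretch were 158 to 214 in the 37 kb array, 37 to 203 in the 43 kb array and 17 to 49 on chromosome 8. They were 6 to 19 on chromosome 4 and 2 to 20 in the 148 kb array. The part of reads that match several copies in these totals was not tested.

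**Figure D4:**
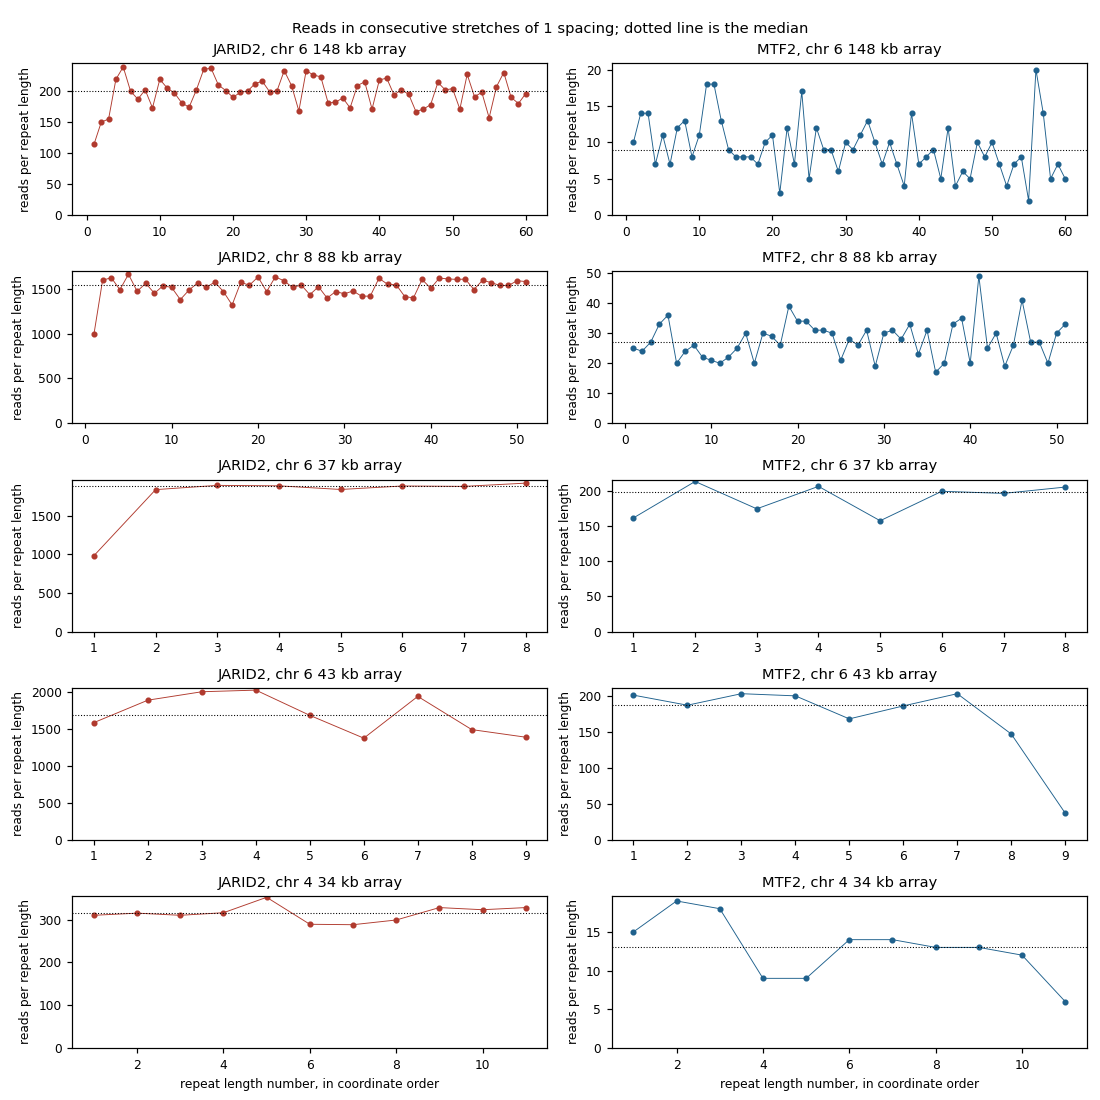
JARID2 (left, red) and MTF2 (right, blue) reads in consecutive stretches of 1 spacing along each array, with the median as a dotted line. The x axis is the number of the stretch in coordinate order and the y axis its read count. The first stretches are the lowest, with 114, 994 and 981 JARID2 reads, in the 148 kb, 88 kb and 37 kb arrays.

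The highest 100 bp peaks were named by position. On chromosome 8 they were at 126441901 and 126509801, with 147 JARID2 reads each, and at 126472401, with 142. In the 37 kb array they were at 47597601 (161 reads), 47584601 (160) and 47614901 (155). In the 43 kb array they were at 47678101 (161), 47693001 (141), and 47669501 and 47673801 (137 each). On chromosome 4 they were at 88245001 (66), 88265501 (63) and 88253801 (59), and in the 148 kb array at 114555301 (47), 114530801 (45) and 114552901 (44).

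The lowest peaks past 5-fold were as low as 4 reads. That was the count at 114478701, 114544401, 114579201 and 114593601 in the 148 kb array. The lowest count was 5 reads on chromosome 4, at 88249401, 88252701, 88257901, 88269801 and 88273001. In the 43 kb array the lowest were at 47706401 (12 reads), and at 47690201, 47699901 and 47700401 (14 each). In the 37 kb array they were at 47596101 (15), 47583201 (16) and 47613401 (18). On chromosome 8 the lowest were still at 126439901 (90), 126451301 (96) and 126450801 (97). The number of peaks was 112 in the 148 kb array and 21 on chromosome 4, and peaks outnumbered repeats in every array, from 1.81 per repeat on chromosome 4 to 5.84 in the 37 kb array. Where a peak had to be highest within 500 bp, the number was 26 in the 37 kb array, against 50, and 27 in the 43 kb array, against 55. It was 71 in the 148 kb array, 78 on chromosome 8 and 16 on chromosome 4. The JARID2 spacing is therefore given from the autocorrelation rather than from neighbouring peaks.

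JARID2 was higher in the first bin inside than in the first bin outside at every edge, from 39 against 19 reads to 513 against 21. Each array has the same coordinates as a JARID2 region called here from bins of at least 5-fold. A step at its edges was therefore fixed in advance, and the values are a description. At the left edge of the chromosome 8 array the first bin inside had 513 JARID2 and 7 MTF2 reads, and the next bin outside 21 and 3. At its right edge the values were 493 and 16 inside and 12 and 10 outside. The 37 kb array began with 169 JARID2 and 0 MTF2 reads, against 11 and 1 outside, and ended with 198 and 35 at the empty stretch. The 43 kb array began at that stretch with 93 JARID2 and 41 MTF2 reads and ended with 64 and 0, against 10 and 3 outside.

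On chromosome 4 the edge bins held 88 and 262 JARID2 reads, against 18 and 13 outside, and 7 and 4 MTF2 reads, against 4 and 6. In the 148 kb array they held 39 and 157 JARID2 reads, against 19 and 17, and 6 and 5 MTF2 reads, against 1 and 5. Runs without a JARID2 read inside the arrays were short. The 2 longest were of 500 bp from 47666001 and 400 bp from 47703301 in the 43 kb array, and of 300 bp from 47616701 and 100 bp from 47583401 in the 37 kb array. They were of 200 bp in the other arrays that had any, from 114455001 and 114476001, and from 88252401 and 88255201.

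Repeat reads and strands were looked at beside these levels. Deposited JARID2 reads per kept read were 1.55 on chromosome 8, 1.49 and 1.53 in the 37 and 43 kb arrays, 1.12 on chromosome 4 and 1.07 in the 148 kb array, against 1.12 in the library as a whole. For MTF2 they were 1.01 to 1.06, against 1.23 in its library. Plus-strand shares of JARID2 reads ran from 48.7% (47.8 to 49.6) in the 148 kb array to 52.4% (51.6 to 53.2) in the 43 kb array. The distance with the most pairs of opposite-strand JARID2 5′ ends was 170 to 200 bp. The share of kept MTF2 reads with a deposited score of 0 was 19.6% (17.5 to 21.7) on chromosome 8 and 22.3% (18.9 to 26.0) in the 148 kb array. It was 25.8% on chromosome 4 and 31.0% and 32.0% in the 37 and 43 kb arrays, against 39.9% over all kept reads. The part of read placement, copy number and base composition in the levels and profiles was not tested.

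The arrays were set beside other wide JARID2 regions, as a description, since even spacing chose them. Of 49 called JARID2 regions of at least 20 kb, 5 were the arrays. The rise of the JARID2 autocorrelation from its trough to its highest lag was 0.594 to 1.23 in the arrays and had a median of 0.00176 in the other 44 regions. One of those, a 23 kb region on chromosome 1 from 172900001, had a rise of 1.14 at a lag of 7610 bp, above 4 of the 5 arrays and below the 37 kb array. Another, of 21 kb on chromosome 6 from 83661001, had 0.579, just under the lowest array. The rise is 0 by definition where the autocorrelation is highest at 300 bp, the shortest lag searched. The median of 0.00176 rests partly on such regions. The 4 widest regions outside the arrays that also had an MTF2 call lay on chromosome 11 from 3022001, chromosome 15 from 102775001, chromosome 2 from 74455001 and chromosome 6 from 52127001. The arrays had JARID2 at 21.1 to 152-fold and MTF2 at 1.08 to 12.1-fold, against 24.8 to 51.5-fold and 6.65 to 21.8-fold in these blocks, whose rises were 0 to 0.000824. The blocks had their highest autocorrelation at 300 or 310 bp, the lower end of the lags searched. Their rises therefore do not measure longer spacing. The lowest depth-scaled ratio of the arrays was 6.73 (6.40 to 7.09), against 5.49 (5.20 to 5.81) for the highest of the blocks and 1.30 for the lowest. The arrays were chosen for JARID2 height and the blocks had to hold an MTF2 call, so the choice bears on this contrast too. With MTF2 reads of score above 0 the ratio was 6.02 in the 37 kb and 5.95 in the 43 kb array. It was not computed that way for the blocks.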

How the data were processed

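JARID2 and MTF2 were profiled by ChIP-seq, with 15 PCR cycles and a Genome Analyzer per the labels' protocols. The deposited files list aligned reads as intervals, 1 line per read (14465269 for JARID2, 10986401 for MTF2). They also carry a score that the authors deposited, 1000 on every JARID2 line and 0 to 10 in MTF2, whose meaning is not given in the sources used here. Nor are aligner, build and handling of multiply matching reads. Reads were kept once per chromosome, strand and 5′ end, moved downstream by 100 bp (JARID2) or 70 bp (MTF2) and counted. The expected count is the chromosome's mean over bins with a read in either file, up to the 99th percentile. The spacing is the lag of the highest autocorrelation between 300 and 10000 bp. A peak is a 100 bp bin of at least 5-fold that is highest within 300 bp, and a window is the 200 bp that is highest (or lowest) within 0.45 spacings on either side. Regions for comparison were called at an adjusted Poisson p of 0.001, 5-fold, and at most 90% of reads on 1 strand, merged at 1000 bp. Intervals are exact, at 95% (Poisson for folds, Clopper-Pearson for shares and ratios), and cover counting error only. They take no account of the cap that 1 kept read per strand and 5′ end sets. Named positions are the 3 highest and 3 lowest peaks, the 2 longest runs without reads and the edges of each array, by a fixed rule. Window positions and peaks tied with the named ones were added. Arrays, lists and windows were chosen with earlier results of these data known. Spacing and folds were tested on simulated JARID2 counts with 1 raised stretch per repeat. At the highest simulated fold, the lag was required only to match the spacing or a multiple of it. Several peaks per repeat and reads matching several copies were not simulated. Coordinates are as in the files, counted from 1. Without a genome, no sequence is printed. Python 3.11.15, numpy 2.4.6 and scipy 1.17.1 were used.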

Additional observations from a re-analysis of the deposited data

How the results depend on the processing

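Of 194 values under alternatives over 43 results, 131 stayed within their counting interval, the quartile range of distances (200 bp for the highest MTF2 step) or 1.5 times (numbers of peaks, variation of totals), and 63 moved. For all 63 the cause was not tested. Arrays are given in the order chromosome 8, chromosome 6 37 kb, chromosome 6 43 kb, chromosome 4 and chromosome 6 148 kb. With all deposited reads the JARID2 fold was 221, 155, 139.9 and 26.8 in the first 4, the MTF2 fold 3.32 on chromosome 8, and the ratio 63.2, 10.7, 10.7, 20.9 and 17.3. With flanks as background the JARID2 fold was 68.8, 94.3, 52.0, 9.01 and 14.2, and the MTF2 fold 4.25 on chromosome 8, 10.2 in the 37 kb, 1.07 on chromosome 4 and 1.48 in the 148 kb array. With the median bin as background JARID2 stood at 177, 141, 124, 37.1 and 27.0, and MTF2 at 4.07, 14.1, 12.8 and, in the 148 kb array, 1.26. With MTF2 reads of score above 0 the MTF2 fold was 4.70, 14.0, 12.5, 1.59 and 1.40 and the ratio 28.2, 6.02, 5.95, 14.0 and 11.5.

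The spacing moved only to multiples of itself, to 3400 bp on chromosome 8 with JARID2 thinned to the MTF2 depth, 8650 bp in the 37 kb array in 50 bp steps, and 5850 bp (50 bp steps, thinned) or 8770 bp (70 bp shift) on chromosome 4. MTF2 at JARID2 peaks over between was 0.826 on chromosome 8 and 5.47 in the 43 kb array with between at 500 bp or more, and 2.05 in the 43 kb array with a 100 bp MTF2 shift. Bins at 500 bp or more came only from wider gaps between peaks and the arrays' ends. With the highest window per repeat, added after the data were seen, MTF2 at peaks over between was 0.497, 0.304, 0.774 and, on chromosome 4, 0.0878 against all other steps, and 0.426, 0.335, 1.03 and 0.0859 against bins at least 300 bp from a peak. In the 43 kb array 27 of the 60 MTF2 reads in those windows fell in that from 47705021. Peaks highest within 500 bp numbered 78, 26, 27, 16 and 71. The highest MTF2 step stayed at 1850 bp in the 37 kb array and at 1850 or 1950 bp in the 43 kb array. No paired analysis was possible because each antibody has 1 library.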

Other observations

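Among other called JARID2 regions of at least 20 kb, 2 had an autocorrelation in the arrays' range at a lag above 320 bp. That range was 0.369 to 0.807. The remaining regions in that range had it at 300 to 320 bp, with a rise of at most 0.0271. The 23 kb region on chromosome 1 from 172900001 to 172923000 had 0.697 at 7610 bp, and the 21 kb region on chromosome 6 from 83661001 to 83682000 had 0.392 at 8580 bp. The rise from the trough was 1.14 in the chromosome 1 region, above all arrays but the 37 kb one, and 0.579 in the chromosome 6 region, just under the lowest array. Each spans few such distances, so the lag rests on few repeats. Both also held an MTF2 call.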
